A study of Mus musculus with 12 samples.

Results

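Vegfa, Vegfb, Vegfc, Adm, Stc1, Stc2, Flt1, Angptl4, Edn1 and Mif encode secreted factors that act on vessels, together with the receptor Flt1, and they were followed in mouse prostate tumour cells under normoxia and hypoxia. All probes of these symbols were taken: the 10 genes, of 13074 named on the array, had 13 of its 45281 probes, and 12 of these were among the 17436 probes detected on at least 2 arrays. The cells were TRAMP-C cells, wild-type per the labels and derived from a prostate tumour of TRAMP mice (male, C57BL6), a mouse model in which a viral oncogene is driven by a prostate promoter. They were transfected by nucleofection with the empty vector pcDNA (control), FoxA2, HIF-1a, or HIF-1a and FoxA2 together. At 48 h after transfection they spent 12 h in normoxia or at 1% oxygen, and amplified RNA (from 500 ng) was hybridised to 12 Illumina Mouse-6 BeadChip arrays. For each of 4 transfections there were 2 hypoxia arrays, replicates 1 and 2, but only 1 for normoxia, and every normoxia array was a replicate 1. The transfected cells were not stated to be a clone or to be selected, so each array held the RNA of all cells of a culture, transfected or not. The transfections were done in duplicate per the labels, but nothing says that the replicates were separate cultures, so the p-values rest on the spread among these arrays and it may be technical.

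Cells that lack oxygen stabilise the HIF alpha subunits, which pair with Arnt and bind a short core motif in DNA, and genes of vessel growth and vessel tone are among the best known targets. Vegfa, Vegfb and Vegfc are ligands of the VEGF receptor tyrosine kinases, of which Flt1 is one. Adm and Edn1 encode peptides that widen and narrow vessels respectively, Stc1 and Stc2 are stanniocalcin glycoprotein hormones, Angptl4 is a secreted inhibitor of lipoprotein lipase, and Mif is a cytokine.

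The promoters of genes that differed in their response are shown because the HIF core motif can be looked up in them. Each sequence is the 250 bases before the annotated start, from RefSeq on build GRCm38.p6, read 5′ to 3′ on the gene's strand, with each ACGTG or GCGTG on either strand in capitals. Adm, Vegfa (the first of its annotated starts), Vegfb and Flt1 are shown as genes that rose in hypoxia, Edn1 as the gene that fell, and Stc2 as a gene that was not called.
Adm, chr7:110627407-110627656, plus strand: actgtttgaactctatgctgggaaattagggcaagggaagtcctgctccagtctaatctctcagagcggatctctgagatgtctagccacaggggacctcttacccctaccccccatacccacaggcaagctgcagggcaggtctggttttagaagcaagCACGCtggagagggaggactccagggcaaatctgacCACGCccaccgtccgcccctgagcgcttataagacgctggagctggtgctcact
Vegfa, chr17:46032378-46032627, minus strand: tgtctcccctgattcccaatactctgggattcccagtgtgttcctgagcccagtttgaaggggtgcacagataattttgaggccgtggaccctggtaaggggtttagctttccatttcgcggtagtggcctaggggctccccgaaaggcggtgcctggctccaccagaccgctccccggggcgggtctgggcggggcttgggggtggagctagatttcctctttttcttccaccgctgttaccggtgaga
Vegfb, chr19:6987652-6987901, minus strand: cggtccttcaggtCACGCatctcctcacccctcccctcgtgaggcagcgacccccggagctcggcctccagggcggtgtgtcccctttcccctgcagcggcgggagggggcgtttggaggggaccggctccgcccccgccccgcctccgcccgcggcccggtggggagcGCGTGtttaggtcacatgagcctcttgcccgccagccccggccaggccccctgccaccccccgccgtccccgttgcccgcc
Flt1, chr5:147726012-147726261, minus strand: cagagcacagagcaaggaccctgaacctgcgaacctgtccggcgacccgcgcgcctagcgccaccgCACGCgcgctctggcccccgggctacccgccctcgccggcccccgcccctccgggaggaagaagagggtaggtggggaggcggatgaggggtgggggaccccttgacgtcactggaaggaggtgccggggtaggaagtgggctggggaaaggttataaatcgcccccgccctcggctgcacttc
Edn1, chr13:42301226-42301475, plus strand: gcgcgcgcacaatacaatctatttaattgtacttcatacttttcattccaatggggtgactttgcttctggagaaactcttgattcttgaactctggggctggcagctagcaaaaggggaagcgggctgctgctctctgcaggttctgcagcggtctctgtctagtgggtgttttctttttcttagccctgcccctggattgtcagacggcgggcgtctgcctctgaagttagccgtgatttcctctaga
Stc2, chr11:31370062-31370311, minus strand: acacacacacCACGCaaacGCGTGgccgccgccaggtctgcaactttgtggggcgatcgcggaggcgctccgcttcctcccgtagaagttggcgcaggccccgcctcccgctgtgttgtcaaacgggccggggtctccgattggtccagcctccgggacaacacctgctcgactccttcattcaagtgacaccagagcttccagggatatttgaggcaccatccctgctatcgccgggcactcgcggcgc

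The Adm window held the core motif at positions -90 to -86 and -54 to -50 before the start, and the Vegfb window at -237 to -233 and -81 to -77. The Flt1 window held it at -184 to -180. The Stc2 window held it at -240 to -236 and -231 to -227, while the Vegfa and Edn1 windows shown held 0 matches. Of the 10 genes 8 had an entry in the promoter table, all but Stc1 and Angptl4, with 9 starts in all because Vegfa has a second one. The windows of Vegfc, which rose, and of Mif are not shown and held 0 matches. In all 5 of the 9 windows (55.6%) held a match, against 38.6% of all 32851 windows in the table. By motif, 1 of the 9 windows (11.1%) held ACGTG, against 16.6% of all windows, and 5 (55.6%) held GCGTG, against 28.2%. The second start of Vegfa, whose window is not shown, was the fifth with a match, with GCGTG at -218 to -214 and ACGTG at -211 to -207. That window lies downstream of the first start, at chr17:46025164-46025413 on the minus strand. Its matches, the only ACGTG among them, thus lie inside the gene as read from the first start and not upstream of it. A match is only a run of letters in a window, and nothing follows from it about binding.

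The transfected genes followed the labels. Foxa2 read 9.27 to 10.98 (log2 normalised intensity) on the 6 arrays transfected with it and 6.14 to 7.07 on the 6 others, and Hif1a read 11.98 to 13.18 against 9.06 to 9.64. Mean probe intensity was 298.5 to 379.8 on 11 arrays and 558.5 on the FOXA2+HIF-1a hypoxia replicate 1 array, and 15322 to 17182 probes were detected per array. Over the detected probes, the hypoxia replicates of a transfection correlated at r = 0.966 to 0.986, and the normoxia arrays, which held different transfections, at 0.995 to 0.997. Of markers of the labelled tissue, the prostate gene Hoxb13 was not detected, the epithelial genes Krt18 and Krt5 were not detected, and Krt8 and Cdh1 were dim, with normoxia means of 5.72 and 5.68. All 6 fibroblast and mesenchymal markers were measured, and Vim had a normoxia mean of 12.40. Of these 6, 3 were called with hypoxia: Vim was higher by 0.60 (limma adjusted p = 0.0444), Pdgfrb was below background on all normoxia arrays and at least 1.49-fold higher (adjusted p = 0.0335, and 0.086 with replicate number as a block), and Pdgfra differed by -0.43 (adjusted p = 0.0167). The mean of the 6 was 10.41 to 10.48 in normoxia and 10.43 to 10.91 in hypoxia. Their part in the results below was not tested. The prostate label was thus not borne out by a marker on these arrays.

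In hypoxia 6 of the 10 genes rose, Edn1 fell, and Stc2, Angptl4 and Mif were not called. Of the 12 detected probes 7 were higher and 1 lower (limma, adjusted p under 0.05), where 12.4% of all 17436 probes were called higher and 14.1% lower (26.5% either way). The 8 hypoxia and 4 normoxia arrays did not overlap for the same 8 probes, where 9.82% of all probes lay wholly higher and 11.7% wholly lower (21.6% either way). The median difference of the 12 probes, hypoxia minus normoxia, was 0.56 on the log2 scale, against -0.02 over all probes. The self-test recovered 20.9% of simulated log2 changes of 0.5, 94% of changes of 1 and 98.5% of changes of 2 in this comparison, so small changes of a member could be missed. It changed only 66 or 67 probes per size and drew independent noise for each array. Its rates may therefore differ from those in these data, where 26.5% of probes were called. The arrays lay on 2 slides, and on slide 1 alone (3 normoxia and 3 hypoxia arrays, all replicate 1) the differences were 4.11 for Adm, 3.43 for Stc1, 1.71 and 2.04 for Vegfa, 0.55 for Vegfb, 0.80 for Flt1 and -0.65 for Edn1, each called. Slide 2 held the 3 FOXA2+HIF-1a arrays, whose differences are given with the transfections. Less RNA per cell and fewer cells that hold it cannot be told apart in these bulk samples. Values below are log2 normalised intensity in the order control, FOXA2, HIF-1a, FOXA2+HIF-1a, and a difference ± SE compares 8 hypoxia with 4 normoxia arrays.

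**Figure D1:**
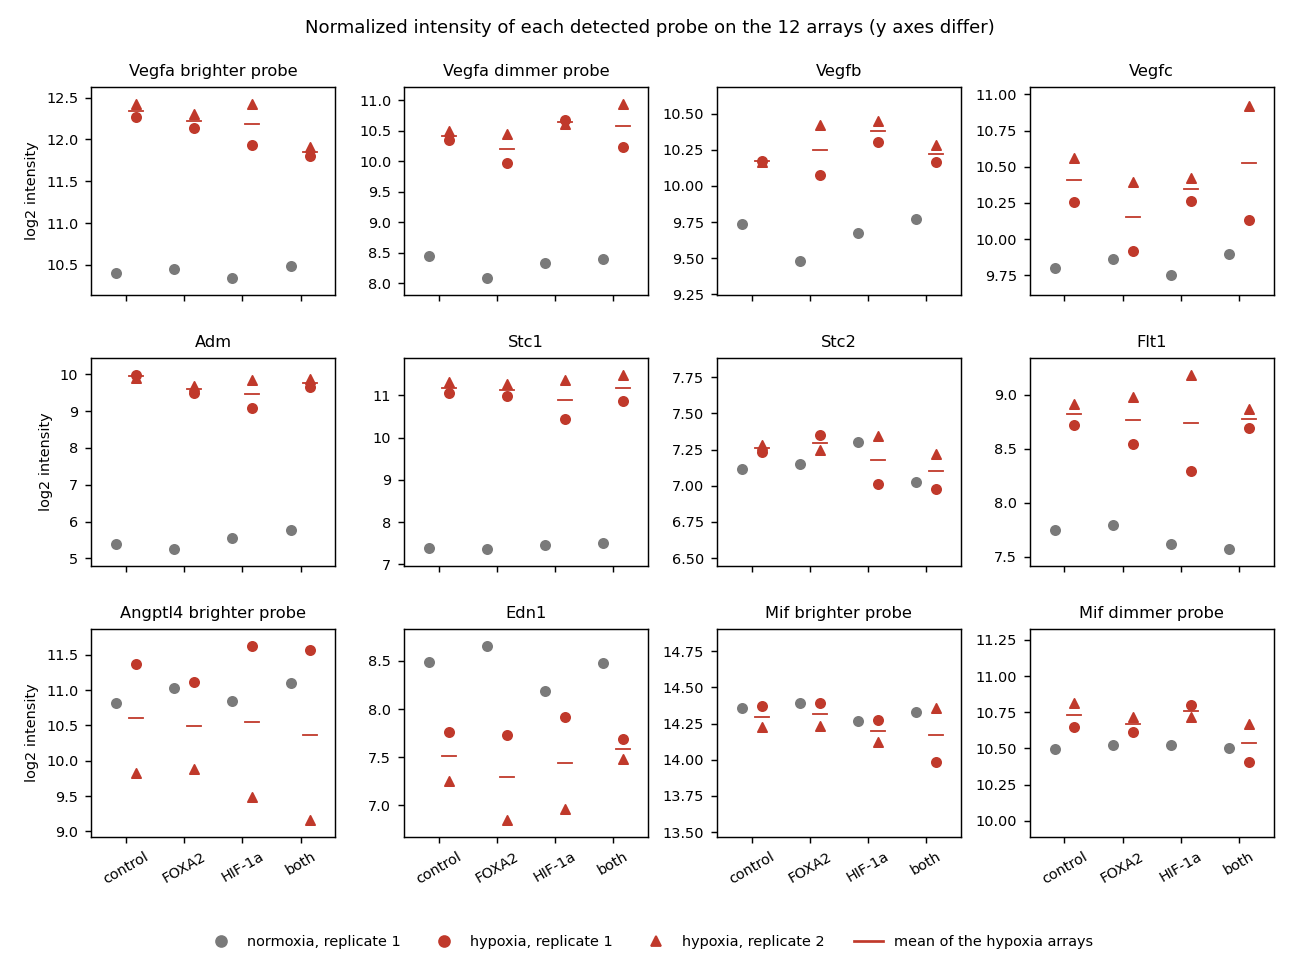
Log2 normalised intensity (vertical axis) of each member probe on every array, by transfection, with normoxia, hypoxia replicate 1 and hypoxia replicate 2 as separate points. The hypoxia points of Adm, Stc1, Vegfa, Vegfb, Vegfc and Flt1 lie above the normoxia points, those of Edn1 below them, and those of the brighter Angptl4 probe lie on either side of them.

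Vegfa, the main ligand of vessel growth, was read by 2 probes annotated to different RefSeq transcripts. On the brighter probe (ILMN_2484527) normoxia values were 10.41, 10.46, 10.35 and 10.48. Hypoxia values were 12.27, 12.13, 11.94 and 11.80 in replicate 1 and 12.42, 12.31, 12.42 and 11.91 in replicate 2. All 8 hypoxia arrays were above all 4 normoxia arrays, and the difference was 1.73 ± 0.12, or 3.31-fold (95% interval of the log2 difference 1.45 to 2.0, limma adjusted p = 3.47e-06). On the dimmer probe (ILMN_3121255) normoxia values were 8.44, 8.09, 8.34 and 8.40, and hypoxia values were 10.35, 9.97, 10.68 and 10.23 in replicate 1 and 10.50, 10.44, 10.62 and 10.94 in replicate 2. The groups again did not overlap, and the difference was 2.15 ± 0.14, or 4.43-fold (1.84 to 2.46, limma adjusted p = 1.78e-06). The probes gave the same direction, and their values correlated at r = 0.944 over the 12 arrays, which differ mainly by oxygen.

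Vegfb, a ligand of Flt1, had normoxia values of 9.73, 9.48, 9.67 and 9.77. Its hypoxia values were 10.17, 10.08, 10.30 and 10.16 in replicate 1 and 10.17, 10.42, 10.45 and 10.28 in replicate 2. The groups did not overlap, and Vegfb rose by 0.59 ± 0.10, or 1.50-fold (limma adjusted p = 0.00199). Vegfc, the ligand best known for lymphatic vessels, had normoxia values of 9.80, 9.86, 9.75 and 9.90. Its hypoxia values were 10.26, 9.92, 10.26 and 10.14 in replicate 1 and 10.56, 10.39, 10.42 and 10.92 in replicate 2. All hypoxia arrays were above all normoxia arrays, though the FOXA2 replicate 1 array only narrowly. Vegfc was higher by 0.53 ± 0.15, or 1.44-fold (limma adjusted p = 0.0263), and once replicate number was a block it was 0.31 and no longer called (adjusted p = 0.0728). Every normoxia array was a replicate 1, so with the block the oxygen difference is that of the replicate 1 arrays alone. Vegfc was not called on slide 1 alone either (0.34, adjusted p = 0.129), nor when any of 5 arrays was left out. These were the normoxia arrays of control, HIF-1a and FOXA2+HIF-1a and the hypoxia replicate 2 arrays of control and FOXA2, with adjusted p up to 0.0986. The 95% intervals of the log2 difference were 0.36 to 0.81 for Vegfb and 0.19 to 0.87 for Vegfc, below those of both Vegfa probes.

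Flt1, the receptor that binds Vegfa and Vegfb, read 7.75, 7.80, 7.61 and 7.58 in normoxia. In hypoxia it read 8.72, 8.54, 8.29 and 8.69 in replicate 1 and 8.92, 8.98, 9.18 and 8.87 in replicate 2, all above normoxia. Flt1 rose by 1.09 ± 0.16, or 2.13-fold (limma adjusted p = 0.000621). Flt1 is best known from endothelium, and of 8 endothelial markers with a named probe only Egfl7 was detected, at 7.18 to 7.31 in normoxia and 6.86 to 7.70 in hypoxia (0.05, adjusted p = 0.865, and -0.23 with adjusted p = 0.139 with the replicate block). The defining endothelial genes Pecam1, Cdh5, Tek, Kdr, Esam, Robo4 and Eng were not detected. Of 3 macrophage and leukocyte markers with a named probe, Adgre1 was not detected. Csf1r was below background on all normoxia arrays and detected on 5 hypoxia arrays, and was at least 1.27-fold higher in hypoxia (adjusted p = 0.0164). Cd14 was higher by 0.45 (adjusted p = 0.0237, and 0.36 with adjusted p = 0.0684 with the replicate block). The mean of these 2 markers, with Csf1r under background in normoxia, was 6.48 to 6.56 in normoxia and 6.91 to 8.28 in hypoxia. Their part in the results was not tested.

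Adm, the precursor of the vessel-widening peptide adrenomedullin, was the member with the largest change. It read 5.40, 5.27, 5.55 and 5.76 in normoxia. In hypoxia it read 9.98, 9.48, 9.08 and 9.67 in replicate 1 and 9.91, 9.69, 9.85 and 9.88 in replicate 2. Before normalisation its intensity was 53.8 to 79.1 in normoxia and 457.1 to 1466.7 in hypoxia, and it was detected on all 12 arrays. Its detection p-values in normoxia were 0.00427, 0.00748, 0.00214 and 0, against a threshold of 0.01, so its normoxia level lay near background. Adm rose by 4.20 ± 0.15, or 18.3-fold (95% interval 3.86 to 4.53, limma adjusted p = 1.68e-08), the 8th largest rise of the 17436 probes. The size of the Adm difference moved with the background step: it was 3.36 (10.3-fold) with no background correction, 3.44 (10.9-fold) with an offset of 50 and 3.38 (10.4-fold) in the authors' processed table, called each time. Stc1, a stanniocalcin hormone first known from calcium regulation in fish, read 7.39, 7.37, 7.45 and 7.51 in normoxia. In hypoxia it read 11.05, 10.99, 10.44 and 10.87 in replicate 1 and 11.31, 11.28, 11.35 and 11.48 in replicate 2. Stc1 rose by 3.67 ± 0.17, or 12.7-fold (3.29 to 4.05, limma adjusted p = 1.15e-07), ranking 13th. Both genes were low on every normoxia array and high on every hypoxia array, and for Adm the nearest arrays read 5.76 and 9.08.

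Stc2, the paralogue of Stc1, did not follow it. It read 7.11, 7.15, 7.30 and 7.03 in normoxia, and 7.24, 7.35, 7.01 and 6.98 in replicate 1 and 7.28, 7.25, 7.34 and 7.22 in replicate 2 of hypoxia. The groups overlapped, and the difference was 0.06 ± 0.10 (95% interval -0.16 to 0.28, limma adjusted p = 0.70). That interval ends far below the 3.67 of Stc1.

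Edn1, the precursor of the vessel-narrowing peptide endothelin, was the only member called lower. It read 8.49, 8.66, 8.19 and 8.48 in normoxia. In hypoxia it read 7.76, 7.73, 7.91 and 7.69 in replicate 1 and 7.26, 6.85, 6.96 and 7.48 in replicate 2. All 8 hypoxia arrays were below all 4 normoxia arrays, and Edn1 fell by 1.00 ± 0.21 on the log2 scale, a 2.0-fold lower level (95% interval -1.46 to -0.54, limma adjusted p = 0.00523). The fall was -0.68 with the replicate block (adjusted p = 0.00544), and -1.32 when only the replicate 2 hypoxia arrays were set against normoxia.

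Mif, a cytokine with many cell sources, was not called on either probe. The brighter Mif probe (ILMN_2867835) read 14.27 to 14.39 in normoxia and 13.98 to 14.39 in hypoxia, with a difference of -0.09 ± 0.10 (95% interval -0.31 to 0.13, adjusted p = 0.532). Its intensity before normalisation was 17351.7 to 25134.6. The dimmer Mif probe (ILMN_1260512) read 10.50 to 10.53 in normoxia and 10.40 to 10.81 in hypoxia, with a difference of 0.16 ± 0.09 (-0.04 to 0.37, limma adjusted p = 0.229). The hypoxia arrays of each probe overlapped the normoxia arrays. On the dimmer probe 7 hypoxia arrays were above all normoxia arrays and 1 below, and on the brighter probe 0 were above and 4 below. The values of the probes were hardly related over the 12 arrays (r = 0.0764).

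Angptl4 gave opposite readings in the 2 hypoxia replicates. Its brighter probe (ILMN_2759365) read 10.81, 11.03, 10.85 and 11.10 in normoxia. In hypoxia it read 11.37, 11.11, 11.62 and 11.57 in replicate 1 and 9.82, 9.89, 9.48 and 9.17 in replicate 2. All 4 replicate 1 hypoxia arrays were thus above every normoxia array, and all 4 replicate 2 arrays below every one. The FOXA2 replicate 1 array, at 11.108, was only narrowly above the highest normoxia array (11.102). It was 0.079 above the normoxia array of its own transfection. The pooled difference was -0.44 ± 0.50 (95% interval -1.53 to 0.65, limma adjusted p = 0.548) and describes neither replicate. Among the replicate 1 arrays alone Angptl4 was higher by 0.47 (adjusted p = 0.0383), and the replicate 2 hypoxia arrays were lower than normoxia by 1.36 on the log2 scale, a difference of -1.36 (adjusted p = 8.17e-05). With the replicate block the difference was again that of replicate 1, 0.47 (adjusted p = 0.0718). It was 0.47 on slide 1 alone (adjusted p = 0.0874) and 0.10 with slide as a block. Of all 17436 probes 350 (2.01%) had every replicate 1 array on one side of its normoxia array and every replicate 2 array on the other. The dimmer Angptl4 probe (ILMN_2424627) was detected on 0 of the 12 arrays, with values of 4.53 to 5.13 and detection p-values of 0.0224 to 0.2094, and was not tested.

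**Figure D2:**
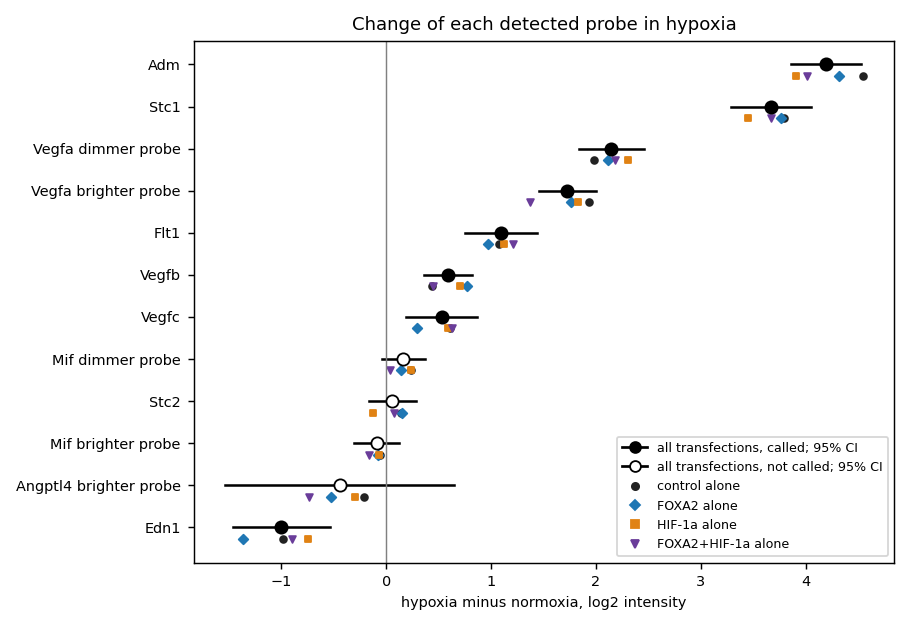
Difference hypoxia minus normoxia (horizontal axis, log2 intensity) of each tested member probe with its 95% interval, from a fit over 4 normoxia and 8 hypoxia arrays (filled where called), with the difference in each transfection alone as small coloured markers. Adm and Stc1 lie at 4.20 and 3.67, both Vegfa probes near 2, Edn1 at -1.0, and the intervals of Stc2, Angptl4 and both Mif probes include 0.

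A comparison of the hypoxia replicates themselves, added after the values were seen, showed which other members moved between them. Of all probes 14.6% were called between replicate 2 and replicate 1 in hypoxia, and of the 12 member probes 3 were. Angptl4 was lower in replicate 2 by 1.83 on the log2 scale (-1.83 ± 0.19, limma adjusted p = 0.00158), and the drop per transfection ran from -2.40 in FOXA2+HIF-1a to -1.22 in FOXA2. Edn1 was also lower in replicate 2 (-0.64 ± 0.15, limma adjusted p = 0.0272), and Stc1 was higher (0.52 ± 0.14, limma adjusted p = 0.0451). Vegfc and Flt1 were each 0.43 higher in replicate 2 and not called (adjusted p = 0.0659 and 0.0876). For Edn1 and Stc1 the replicates thus differed in size within the same direction from normoxia, and for Angptl4 they differed in direction. Replicate 1 of control, FOXA2 and HIF-1a lay on slide 1 and every replicate 2 array on slide 2, so slide and replicate cannot be told apart in those transfections. In FOXA2+HIF-1a all 3 arrays lay on slide 2, and there Angptl4 read 11.10 in normoxia, 11.57 in replicate 1 and 9.17 in replicate 2.

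**Figure D3:**
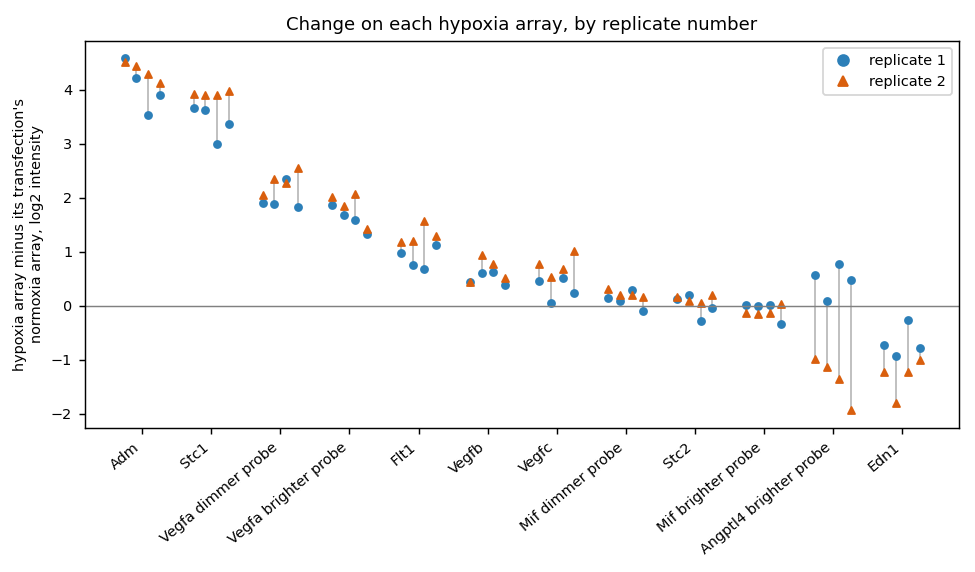
Change of each member probe from the normoxia array of the same transfection (log2 intensity), for hypoxia replicate 1 and replicate 2 in each transfection. Only the brighter Angptl4 probe has all replicate 1 points above 0 and all replicate 2 points below it, with drops between replicates of -1.22 to -2.40.

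Within each transfection 2 hypoxia arrays were set against 1 normoxia array, and Adm, Stc1 and Vegfa were the members called. The spread came only from the pairs of hypoxia replicates, as a group of 1 array gives none. Each lone normoxia array was assumed to vary like those pairs. Over the detected probes normoxia arrays correlated at r = 0.995 to 0.997 and hypoxia replicates at 0.966 to 0.986. In control cells 3 of 12 member probes were higher, where 0.539% of all probes were called higher. These were Adm (4.54), Stc1 (3.80) and the brighter Vegfa probe (1.94, limma adjusted p = 0.0244). In FOXA2 cells 4 were higher against 0.574% of all probes: Adm (4.32), Stc1 (3.76) and the brighter and dimmer Vegfa probes (1.76 and 2.12). In HIF-1a cells 4 were higher against 0.665% of all probes, with Adm at 3.91, Stc1 at 3.45 and Vegfa at 1.83 and 2.31. In FOXA2+HIF-1a cells 3 were higher against 0.51% of all probes, with Adm at 4.01, Stc1 at 3.67 and the dimmer Vegfa probe at 2.18. With the replicate block both Vegfa probes, Adm and Stc1 were called in all 4 transfections, the dimmer Vegfa probe in control at 1.82 (adjusted p = 0.0155) and the brighter one in FOXA2+HIF-1a at 1.26 (adjusted p = 0.0282). The block also raised the count over all probes, from 98 to 278 in control, 103 to 299 in FOXA2, 122 to 390 in HIF-1a and 93 to 357 in FOXA2+HIF-1a. Left out, the control hypoxia replicate 2 array lowered the member probes called in control from 3 to 1, and the FOXA2 hypoxia replicate 2 array lowered those in FOXA2 from 4 to 1. With either control hypoxia array left out 2 member probes were called in FOXA2 and 2 in HIF-1a, and without the FOXA2 hypoxia replicate 1 array 2 member probes were called in FOXA2.

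Flt1 was higher in all 4 transfections, by 1.07 in control, 0.97 in FOXA2, 1.12 in HIF-1a and 1.20 in FOXA2+HIF-1a, and passed the test in none of them (adjusted p = 0.282 to 0.524). Edn1 differed by -0.99, -1.37, -0.75 and -0.90 in the same order, likewise without a call (adjusted p = 0.469 to 0.644). Vegfb differed by 0.43, 0.77, 0.70 and 0.45, and Vegfc by 0.61, 0.29, 0.59 and 0.63, with no call. The signs were the same in every transfection for these genes, but a fit with 1 normoxia array each did not call them.

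Neither transfected factor moved a member in hypoxia beyond the spread of the arrays. For the effect of FOXA2, the mean of FOXA2 and FOXA2+HIF-1a minus that of control and HIF-1a, 0 of 12 member probes were called, where 2 of all probes (0.0115%) were. For the effect of HIF-1a, formed the same way, 0 member probes were called, and 0 of all probes. The counts were 0 of 12 as well for the interaction of the factors and for the difference of the hypoxia response with and without FOXA2 and with and without HIF-1a, where 0 of all probes were called (0%). At an unadjusted p under 0.05 limma called 0 of the 12 member probes in each of these 5 comparisons, and 134, 1075, 439, 24 and 140 of all probes in turn. With the replicate block the member counts were 0 of 12 again in each, adjusted and unadjusted, while 479, 2427, 1281, 154 and 564 of all probes were at an unadjusted p under 0.05. The median effect of the member probes was -0.03 for FOXA2 and -0.07 for HIF-1a, against -0.02 and 0.01 over all probes.

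The intervals show what size of effect these arrays leave room for. The FOXA2 effect on Adm was -0.02 ± 0.19 (95% interval -0.46 to 0.42), and the HIF-1a effect -0.15 ± 0.19 (-0.59 to 0.29). For Stc1 the FOXA2 effect was 0.11 (-0.44 to 0.67) and the HIF-1a effect -0.12 (-0.68 to 0.43). The changes with oxygen, 4.20 and 3.67, lie far outside these intervals. The replicate block left these estimates as they were and narrowed the intervals, for Adm to -0.37 to 0.32 (FOXA2) and -0.50 to 0.19 (HIF-1a), and for Stc1 to -0.21 to 0.44 and -0.45 to 0.20. The HIF-1a effect on Vegfa was 0.30 ± 0.20 on the dimmer probe (-0.15 to 0.75) and -0.27 ± 0.15 on the brighter one (-0.62 to 0.09), so the probes lay on opposite sides of 0 and neither was called. With the block these intervals were -0.04 to 0.64 and -0.54 to 0.005 (limma adjusted p = 0.388 and 0.361). The effects on Flt1 were -0.01 (-0.51 to 0.50) for FOXA2 and -0.03 (-0.54 to 0.47) for HIF-1a. The effects on Edn1 were -0.03 (-0.68 to 0.61) and 0.11 (-0.53 to 0.75). For Angptl4 the intervals were widest, -1.72 to 1.44 for FOXA2 and -1.67 to 1.49 for HIF-1a, but with the block they were -0.59 to 0.31 and -0.54 to 0.36. The blocked intervals were -0.34 to 0.33 and -0.37 to 0.30 for Flt1, and -0.38 to 0.31 and -0.23 to 0.45 for Edn1. Adm had the largest interaction estimate, 0.67 ± 0.38 (-0.21 to 1.55, or -0.02 to 1.36 with the block), and its response to hypoxia differed by -0.47 ± 0.33 (-1.23 to 0.29) with HIF-1a. The p-values of these effects missed the threshold and do not show that the transfections acted alike.

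In the order of the hypoxia means, control was highest for Adm (9.95), Stc1 (11.18), Flt1 (8.82) and the brighter Vegfa probe (12.34). HIF-1a was lowest for Adm (9.46), Stc1 (10.90) and Flt1 (8.74), and FOXA2+HIF-1a for the brighter Vegfa probe (11.85). For 11 of the 12 tested probes the gap between the highest and the lowest transfection was smaller than the largest gap between the replicates of a transfection. The exception was the brighter Vegfa probe, with a gap of 0.49 between transfections and a largest replicate gap of 0.48. In normoxia, where each transfection had 1 array and no spread, the transfections differed by 0.03 to 0.49 over the tested probes.

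**Figure D4:**
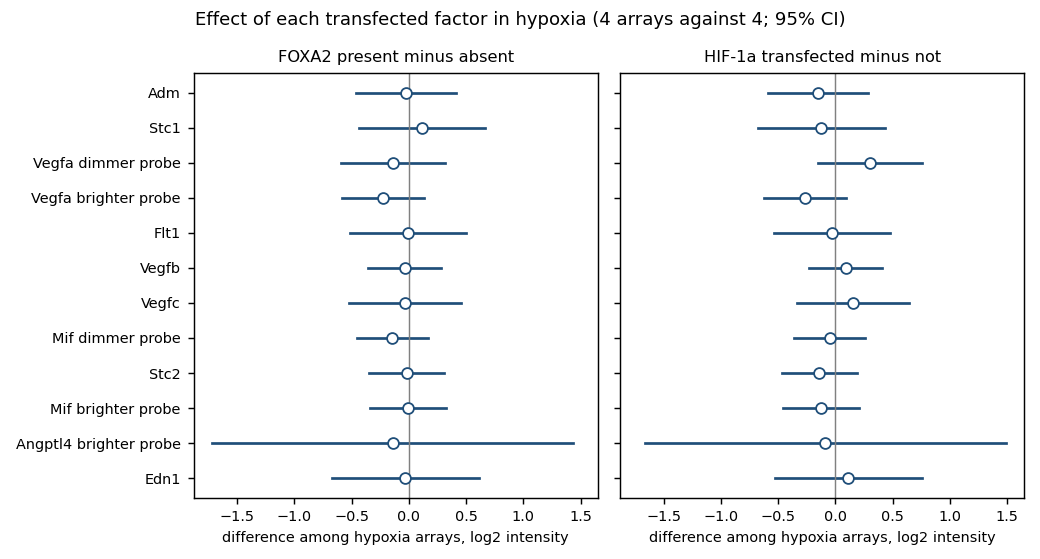
Effect of FOXA2 and of HIF-1a in hypoxia (log2 intensity, with 95% intervals) on each tested member probe, from 8 hypoxia arrays in a fit with a mean per group and no replicate block. Every interval includes 0, and those of Angptl4 are the widest.

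Related genes were read from lists chosen with earlier results of these data known, with 1 probe a gene, and are described by counts and medians. Their counts stand beside the 12.4% of all probes called higher, 14.1% called lower and 26.5% called either way, and the median of -0.02 over all probes. Of the VEGF ligands and receptors, 4 of the 6 with a named probe were measured, 2 were higher, and the median difference was 0.74. Pgf, a ligand of Flt1, was below background on all normoxia arrays and at least 2.41-fold higher in hypoxia (limma adjusted p = 3.64e-06), a bound set by the lowest detected signal. Vegfd, a ligand related to Vegfc, was higher by 1.18 ± 0.23 (adjusted p = 0.00359). The co-receptors Nrp2 (0.30, and 0.077 with the block) and Nrp1 (-0.23, and 0.026) were not called, and the receptors Kdr and Flt4 were not detected. Thus 3 ligands outside Vegfa and Vegfb, namely Vegfc, Vegfd and Pgf, had higher readings in hypoxia, while Flt1 was the only VEGF receptor kinase detected.

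Of the angiopoietins, their receptors and angiopoietin-like factors, 3 of 7 were measured and 2 were higher, with a median of 0.60. Angpt2, which modulates the TIE receptor Tek, rose by 0.85 (adjusted p = 0.00299), and Angptl6 by 0.60 (adjusted p = 0.0408, and 0.29 with adjusted p = 0.0985 with the replicate block). Of the adrenomedullin and endothelin systems 6 of 7 were measured, 2 were higher and 1 lower, with a median of 0.06. Adm2, a peptide related to Adm, rose by 1.51 (adjusted p = 0.000285), and Edn2, a paralogue of Edn1, was at least 2.37-fold higher (adjusted p = 0.0123), opposite to Edn1. Ece2, a converting enzyme of endothelins, fell by 1.11 (-1.11, adjusted p = 0.000583; its other detected probe gave -0.82), and Ece1 differed by -0.37 without a call. Ramp3, a partner of the Adm receptor named after its values were seen, differed by 0.41 without a call (adjusted p = 0.228). Its other detected probe gave 0.19. With the replicate block Ramp3 was called (0.80, limma adjusted p = 0.00294), and its call under the other alternatives was not examined. Of the MIF relatives and receptors 0 of 3 were called, with a median of 0.11 (0.10 with Cd74 at its bound). Cd44, a co-receptor of Mif, differed by -0.75 (adjusted p = 0.114, and -0.15 with adjusted p = 0.351 with the block), and its 5 other detected probes by -1.49 to -0.54. The receptor Cd74 was below background on all normoxia arrays, and Ddt, a relative of Mif, differed by 0.11 (-0.034 with the block).

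Of 21 other secreted angiogenic or hypoxia factors 18 were measured, 5 were higher and 1 lower, with a median of 0.04. These 6 of 18 stand beside 26.5% of all probes. Lox, which cross-links collagen, rose by 1.48 (adjusted p = 2.17e-06), the chemokine Cxcl12 by 1.06 (adjusted p = 3.98e-05) and the IGF-binding protein Igfbp3 by 2.03 (adjusted p = 4.46e-05). Sema3a, a guidance factor that binds Nrp1, fell by 0.83 (-0.83, adjusted p = 0.0085), but its other detected probe gave 0.046. Ccn1, a matrix-associated factor named after its values were seen, differed by -1.38 (adjusted p = 0.0515) and was called with the replicate block (-0.49, adjusted p = 0.00896). Of the HIF subunits and regulators 8 of 9 were measured and 3 were higher, with a median of 0.71. Egln1 (3.13) and Egln3 (3.10), the prolyl hydroxylases that mark HIF alpha subunits for decay, and Siah2 (1.25), a ubiquitin ligase, rose, while Vhl differed by 1.43 without a call (adjusted p = 0.141, and 0.84 with the block). The other detected probes of Egln1 gave 2.73 to 3.05 and that of Egln3 gave 1.22.

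**Figure D5:**
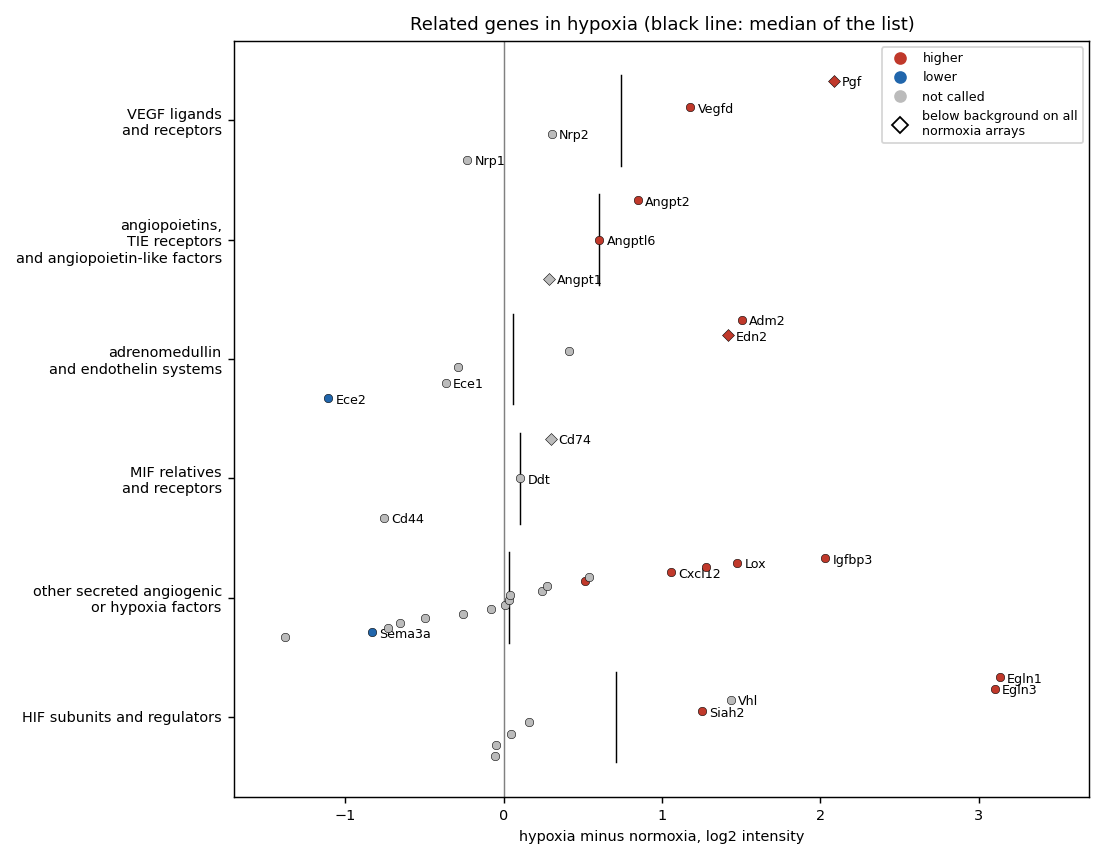
Difference hypoxia minus normoxia (log2 intensity) of the measured genes of each list, with the list's median as a black line and called genes in colour. Diamonds mark genes below background on all normoxia arrays, whose position is a fitted value and not a measured change. The medians run from 0.04 for other secreted factors to 0.74 for VEGF ligands and receptors.

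The genes whose values ran most like a member's over the 12 arrays are given as a description. The arrays fall apart by oxygen, so r mainly reflects that split. Adm ran most like Slc2a1, the glucose transporter GLUT1 (r = 0.998), Ankrd37 (0.997) and Stc1 (0.996). Stc1 ran most like Kdm3a, a histone demethylase (0.997), Adm and Ankrd37. Vegfa, on its brighter probe, ran most like Sh3yl1 (0.993), Galr2 (0.992) and Mgarp (0.992), and Flt1 most like Fam117b (0.988). Vegfb ran most like Fbxl15 (0.978), and Vegfc most like Cgrrf1 (0.981). Edn1 ran most like Timm17a (0.987), Nhp2 (0.984) and Rsl1d1 (0.98). Angptl4, whose replicates disagreed, ran most like Wwc1 (0.959), the zinc finger factor Klf6 (0.949) and Flrt2 (0.948). Stc2 and Mif had lower best values, 0.93 with Palm3 and 0.919 with Wtip. Within the hypoxia groups each gene has only 4 independent differences between replicates, so no likeness is named there.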

How the data were processed

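RNA of 12 samples was hybridised to Illumina BeadChips (Mouse-6), and groups were taken from the sample labels. The authors deposited linear, non-normalized intensity for every probe, with a detection p-value per probe and array, per the file headers. The authors also deposited a processed intensity table, made by a method not given in the sources used here, which served as an alternative on the log2 scale. Columns left unused numbered 0. Which software read the intensities was not given in the sources used here.

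Deposited intensities were background-corrected with neqc (limma 3.58.1, R 4.3.3; offset 16, background from the detection p-values), quantile normalized and expressed as log2. The filter kept the 17436 probes detected (detection p-value under 0.01) on 2 or more arrays, and no imputation was used. Gene names came from the platform annotation, which gave 1 symbol to 14981 kept probes, several to 5 and none to 2450. Tests used lmFit and eBayes with Benjamini-Hochberg adjustment over all 17436 probes, called at 0.05. Hypoxia minus normoxia came from transfection plus oxygen, and the other 9 comparisons from a mean per group. The fits were tested on simulated data. No interval for depth applies to arrays, where the number of arrays limits the precision.

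Each list named its up to 4 members of smallest p, all probes of the 10 genes were reported, and a gene elsewhere was its detected probe of highest mean. Where normoxia was below background on all arrays, a fold is the hypoxia mean over the lowest detected signal, given as "at least". The members and lists were chosen with earlier results of these data known. Same-numbered hypoxia arrays deviated together (r of deviations 0.279 to 0.764 in all 6 pairs of transfections). Replicate number was fitted as a block only as an alternative. The main fits, with their standard errors, intervals and p-values, did not use this pairing. As no normoxia array was a replicate 2, the blocked difference of hypoxia minus normoxia over all transfections equals that of the replicate 1 arrays. The alternatives were other background, offset, scaling, filter, probe choice, slide and replicate block, subsets of arrays, the authors' table and each array left out. The probes' coordinates were not used.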

Additional observations from a re-analysis of the deposited data

Results flagged for a closer look

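The brighter Angptl4 probe differed between the hypoxia replicates in every transfection, by -1.83 ± 0.19 (replicate 2 minus replicate 1, log2 intensity, limma adjusted p = 0.00158). It lay above normoxia in all 4 replicate 1 arrays, in FOXA2 only narrowly, and below it in all 4 replicate 2 arrays. The FOXA2+HIF-1a hypoxia replicate 1 array had a mean probe intensity of 559 before normalisation, where the next highest hypoxia array had 378, a gap of 0.693 of the range. Of 28 groups tested for an array far from the others this was the 1 found, and chance gives about 5 in 100 groups. On that array, after normalisation, 4 of the 12 detected member probes were the lowest of the 8 hypoxia arrays: the brighter Vegfa probe at 11.80 (others from 11.91), the brighter Mif probe at 13.98 (others from 14.12), the dimmer Mif probe at 10.40 (others from 10.62) and Stc2 at 6.98 (others from 7.01). The other 8 probes, those of Adm (9.67), Stc1 (10.87) and Edn1 (7.69) among them, lay within the range of the other hypoxia arrays. The matching share over all probes was not counted, so the 4 only describe this array and are no trait of the members. The causes of these differences were not tested.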

How the results depend on the processing

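Adm, Stc1, both Vegfa probes, Vegfb, Flt1 and Edn1 kept their direction and their call in hypoxia minus normoxia under every alternative run. In that comparison the replicate block gave the same differences as replicate 1 alone, so these are not separate checks. Adm moved from 4.20 to 3.36 with no background correction, 3.44 with an offset of 50 and 3.38 in the authors' table. The member probes called there numbered 7 to 9 against 8, and 7 to 8 with each array left out. Vegfc was not called without the filter on dim probes (0.53, adjusted p = 0.0732), with slide as a block (0.43, 0.0726), with the replicate block (0.31, 0.0728), on replicate 1 alone (0.31, 0.089), on slide 1 alone (0.34, 0.129) or with a mean per group (adjusted p = 0.0924). The sign turned for Stc2 with the replicate block and on replicate 1 alone (-0.0044 in each), and for the brighter Mif probe on slide 1 alone (0.0076). For Angptl4 it turned with slide as a block (0.10), the replicate block (0.47), replicate 1 alone (0.47) and slide 1 alone (0.47), and the replicate 2 hypoxia arrays alone gave -1.36. With slide as a block the uncalled FOXA2 effect turned for Stc1 (-0.0061), Angptl4 (0.27), Edn1 (0.16) and the brighter Mif probe (0.031), and the HIF-1a effect for Angptl4 (0.32).

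Within transfections, no filter on dim probes left 1 member probe called in each, against 3 in control, 4 in FOXA2, 4 in HIF-1a and 3 in FOXA2+HIF-1a, and median scaling left 2 in FOXA2. With an array left out the counts ran from 1 to 3, 1 to 4, 2 to 4 and 2 to 3 in the same order. These responses could not be fitted without the lone normoxia array of that transfection. The replicate block changed no other call of a member in hypoxia minus normoxia than that of Vegfc, and added 1 probe to control and 1 to FOXA2+HIF-1a.

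With an array left out, the uncalled FOXA2 effects ran from -0.32 to 0.039 for the dimmer Vegfa probe, -0.12 to 0.047 for Vegfb, -0.23 to 0.16 for Vegfc, -0.22 to 0.17 for Adm, -0.11 to 0.34 for Stc1, -0.10 to 0.065 for Stc2, -0.23 to 0.22 for Flt1, -0.74 to 0.46 for Angptl4, -0.27 to 0.21 for Edn1 and -0.10 to 0.086 for the brighter Mif probe. The HIF-1a effects ran from -0.043 to 0.35 for Vegfc, -0.34 to 0.041 for Adm, -0.35 to 0.11 for Stc1, -0.25 to 0.19 for Flt1, -0.69 to 0.51 for Angptl4, -0.13 to 0.35 for Edn1 and -0.12 to 0.016 for the dimmer Mif probe. No member was called for either effect under any alternative.

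Over all probes, hypoxia minus normoxia called 4628, against 2918 with 1 probe a gene, 2974 on slide 1 alone, 2518 with a mean per group, 8802 with the replicate 2 hypoxia arrays alone, and 2711 to 5351 with an array left out. Within transfections it called 98, 103, 122 and 93, against 42, 49, 69 and 51 without the filter, 63, 66, 73 and 59 with 1 probe a gene, 278, 299, 390 and 357 with the replicate block, and 221 in FOXA2+HIF-1a with slide as a block. The FOXA2 effect called 2, and 0 to 65 with an array left out, and the HIF-1a effect 0, and 0 to 108. The interaction ran from 0 to 51, and the difference of the hypoxia response with HIF-1a from 0 to 19. The 65, 108, 51 and 19 all came without the HIF-1a hypoxia replicate 2 array. The causes were not tested, except that fewer features were tested with 1 probe a gene. The dimmer Angptl4 probe, under background on every array, limits what can be said of that gene, and 1 normoxia array a transfection limits the responses within it.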
